A study of Mus musculus with 21 samples.

Results

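The Ash1L-bound regions at Bahcc1 and at the neighbouring noncoding gene 2810410L24Rik, on mouse chromosome 11, are described here in C2C12 cells. Their members were chosen from the merged list of Ash1L narrow regions that the authors deposited, as the regions that the study's own assignment gives to Bahcc1 or 2810410L24Rik. This took 3 of the 259 merged regions, 2 of them at Bahcc1 and 1 at 2810410L24Rik. The members were chosen on the Ash1L ChIP-seq calls themselves, so the positions, lists and values of these calls are descriptions and were not tested.

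C2C12 is an established line of mouse myoblasts, which leave the cell cycle and fuse into myotubes when serum is lowered. For the Ash1L ChIP-seq, the cells had been kept for 24 hours (day 1) in differentiation medium with 2% donor horse serum. Chromatin was precipitated with a rabbit antibody against Ash1L, and 3 replicates were sequenced. The study's methods do not say whether these replicates came from independent experiments. A label shared by the samples of the series speaks of a longer differentiation, and the time given here is that of the label of each ChIP sample. The same input chromatin served as the control of the peak calls, and none of the other groups of the 21 samples of the series was used.

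Ash1L is a Trithorax group protein that places methyl groups on lysine 36 of histone H3, and the Trithorax group keeps genes active where the Polycomb group would silence them. Bahcc1 encodes a large nuclear protein with a coiled coil and a BAH domain, a fold through which chromatin proteins recognise histones, and the BAH domain of Bahcc1 is known to recognise the trimethylated lysine 27 of histone H3 that Polycomb places. 2810410L24Rik is annotated as a noncoding processed transcript.

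Each replicate list gives the start and end of a region and, for every summit called inside it, an unnamed value. This value was taken to be −log10 q because the list of replicate 2 ended at 1.30, a q of 0.0496. The lists held 240 regions with 779 summits in replicate 1, 35 regions with 129 summits in replicate 2 and 228 regions with 868 summits in replicate 3. The lowest values in replicates 1 and 3 were 2.30 and 2.38, so those lists ended at a smaller q than the list of replicate 2. The lists hold no read counts and no position of a summit, only the order of the summits within a region, so depth is unknown and a summit is named here by its place in that order, taken to run from the lower coordinate to the higher. The value of a region in a list is that of its highest summit.

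The most extended of the 3 regions lay in the first part of Bahcc1, just downstream of its start. It reached from position 120233007 to 120239262 of chromosome 11 (GRCm38, the same assembly as mm10) and was 6256 bp wide. Its width rests on replicate 2, without which the domain parts and its larger piece is 3924 bp, less than the 4487 bp of the 2810410L24Rik region. It was present in all 3 lists, as were 35 of the 259 merged regions (13.5%), and from this share nothing is read about the members. Its −log10 q was 72.1 in replicate 1, 66.3 in replicate 2 and 99.96 in replicate 3, with a mean of 79.5 ± 17.99 (SD, n = 3). Replicate 3 was the highest, and replicates 1 and 2 differed by less than the SD over the lists.

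Within its own list this region ranked 5 of 240 in replicate 1, 1 of 35 in replicate 2 and 3 of 228 in replicate 3. Among the 259 merged regions it ranked 4 by the highest list, 3 by the mean over the lists and 1 by the lowest list, and 9 by width. The highest value of any region was 280.4 in replicate 1, 66.3 in replicate 2, where it was that of Bahcc1, and 110.8 in replicate 3.

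The limits of the Bahcc1 domain were close in replicates 1 and 3 and narrower in replicate 2. The list of replicate 1 began 22 bp after the merged start and ended 30 bp before the merged end. The list of replicate 3 set both limits of the merged region, and the list of replicate 2 began 381 bp inside it and ended 363 bp inside it. Replicates 1 and 3 shared 98.5% of their joint length here, replicates 1 and 2 shared 84.2%, and replicates 2 and 3 shared 83.6%. Over all merged regions held by both lists of a pair, the medians of this share were 77.4%, 68.7% and 70.3%. The bases held by all 3 lists came to 5209 bp, 83.3% of the merged width, between 120233388 and 120238899.

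Replicate 2 called this domain as 1 unbroken region of 5512 bp, whereas replicates 1 and 3 each called it as 2 regions. In replicate 1 these ran from 120233029 to 120236930 (3902 bp) and from 120237220 to 120239232 (2013 bp). In replicate 3 they ran from 120233007 to 120236916 (3910 bp) and from 120237197 to 120239262 (2066 bp). The break was therefore at almost the same place in both lists, with a length of 289 bp in replicate 1 and of 280 bp in replicate 3 and with 266 bp in common, from 120236931 to 120237196.

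The summits of the upstream part took a similar course in replicates 1 and 3. In replicate 1 it held 17 summits, which began at 7.12 on the side of the gene start, stood at 20.5 at summit 4 and at 51.8 at summit 8, and were highest at summit 12, with 72.1. They then fell to 13.8 at summit 15 and ended at 29.1. In replicate 3 the upstream part held 16 summits, which began at 8.67, stood at 35.8 at summit 4 and at 75.6 at summit 8, and were again highest at summit 12, with 99.96. The lowest value after that was 16.8, at summit 14, and the last was 51.2. The highest summit thus lay in the inner part of the upstream region in both lists, not at its border with the gene start.

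The downstream part held 6 summits in both replicates, and its highest values were lower than those of the upstream part. In replicate 1 it was highest at summit 2, with 44.4, and its last summits had 5.06 and 11.1. In replicate 3 it was highest at summit 4, with 55.1, and its last summits had 28.5 and 12.6. The 4 summits of replicate 2 had values of 33.7, 66.3, 9.24 and 13.7, and the highest was again not at either end of the order.

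The number of summits differed with the list as a whole. The wide Bahcc1 region held 23 summits in replicate 1, 4 in replicate 2 and 22 in replicate 3, so that 1 summit fell on 257, 1378 and 272 bp of called region. Over the whole lists the same measure was 331, 1041 and 343 bp. Summits were thus more closely spaced at Bahcc1 than over the list in replicates 1 and 3, and more widely in replicate 2.

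The second Bahcc1 region was short and weak. It lay from 120239359 to 120239708 (350 bp), 96 bp after the end of the wide region, and was listed in replicates 1 and 3 and not in replicate 2. Presence in at least 2 lists was found for 123 of the 259 merged regions (47.5%). Its only summit had a −log10 q of 5.77 in replicate 1 and 7.37 in replicate 3, with a mean of 6.57 ± 1.14 (SD, n = 2). It ranked 198 of 240 and 130 of 228 in these lists, and 149 of 259 by its highest value. Replicate 1 called 238 bp and replicate 3 called 312 bp, of which 200 bp, from 120239471 to 120239670, were shared. Of the 88 merged regions held by replicates 1 and 3 but not by replicate 2, the median values were 8.81 and 10.4, so this one was below the median in both lists.

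The region of 2810410L24Rik reached from 120185316 to 120189802 (4487 bp) and was present in all 3 lists. Its −log10 q was 30.1 in replicate 1, 29.8 in replicate 2 and 43.0 in replicate 3, with a mean of 34.3 ± 7.56 (SD, n = 3). As at Bahcc1, replicate 3 was the highest and the other 2 replicates were closer to each other. It ranked 26 of 240, 6 of 35 and 12 of 228 in the lists. Among the 259 merged regions it ranked 17 by the highest list, 12 by the mean, 6 by the lowest list and 21 by width.

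At this gene each list had 1 unbroken region, but the limits differed more than at Bahcc1. Replicate 1 covered 120185316 to 120189781 and replicate 3 covered 120185644 to 120189802, and these shared 92.2% of their joint length. Replicate 2 covered only 120186354 to 120189258 (2905 bp), which lay wholly inside both other lists and was 64.7% of the merged width. It shared 65.0% of the joint length with replicate 1 and 69.8% with replicate 3. The list of replicate 2 left out 1038 bp on the side of the 3′ end of the gene and 544 bp on the side of its start.

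The summits of this region were highest on the side of the gene start in all 3 lists, since the gene runs on the minus strand and its start has the higher coordinate. Replicate 1 had 11 summits, from 5.92 at the first to 30.1 at summit 9, and 10.1 at the last. Replicate 2 had 3 summits, of 5.20, 6.95 and 29.8. Replicate 3 had 10 summits, from 6.05 at the first to 43.0 at summit 8, and its last was still 37.8. The median over the summits was 11.7, 6.95 and 32.9 in the 3 lists.

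Set side by side within each list, the wide Bahcc1 region was above the 2810410L24Rik region by 42.0 in replicate 1, 36.5 in replicate 2 and 56.9 in replicate 3 on the −log10 q scale. The mean difference was 45.2 ± 10.6 (SD, n = 3), with the same sign in all 3 lists and larger than its SD. With the mean over summits in place of the highest summit the difference was 16.9 ± 1.36, and with the median over summits it was 15.3 ± 3.03. As percentiles within the list, the wide Bahcc1 region stood at 98.3, 100 and 99.1 and the 2810410L24Rik region at 89.6, 85.7 and 95.2. By the highest summit, the order of the 3 members was wide Bahcc1, 2810410L24Rik and short Bahcc1 in both lists that held all of them. None of these neighbours in the order overlapped in this value over the lists. By the median over summits the 2 wide members did overlap. The 2810410L24Rik region had 32.9 in replicate 3, above the 29.1 and 23.7 of the wide Bahcc1 region in replicates 1 and 2.

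Both wide members differed little between replicates 1 and 2, compared with the other regions held by all lists. Over the 35 such regions, replicate 2 minus replicate 1 had a median of -16.5 and ran from -32.1 to -0.335, so that none was higher in replicate 2. The 2810410L24Rik region had the smallest drop of the 35, at -0.335, and the wide Bahcc1 region ranked 4, at -5.80. Replicate 3 minus replicate 1 had a median of 7.98 and was above 0 in 31 of the 35. The wide Bahcc1 region stood at 27.9, rank 4, and the 2810410L24Rik region at 12.9, rank 11. Depth, which moves every −log10 q of a list, is unknown, and its part in these differences was not tested.

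A further region, outside the rule, lay between the members, at the noncoding gene 2900052L18Rik (120229802 to 120231585, minus strand). It reached from 120229949 to 120231299 (1351 bp) and was listed in replicates 1 and 3, with a −log10 q of 26.4 and 29.3, and not in replicate 2. It began 1707 bp before the wide Bahcc1 region and 40146 bp after the 2810410L24Rik region, as distances between their nearest ends. Both lists had their highest summit at the last place in the order, which is the side toward the start of 2900052L18Rik and toward Bahcc1. From the first to the last base of the members the locus measured 54393 bp. The merged region before it on the chromosome ended 11173316 bp away and there was none after it, so these 4 regions stood together among the 9 of chromosome 11. Gm11770, an antisense gene at 120215082 to 120216993, lies between them and had no merged region.

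Relative to the genes, both wide members began just inside the transcribed part, and the short region began 6412 bp downstream of the Bahcc1 start. Bahcc1 occupies 120232947 to 120292296 on the plus strand (59350 bp, GENCODE M21), and the wide region began 60 bp downstream of its start. 2810410L24Rik occupies 120185400 to 120189852 on the minus strand (4453 bp), and its region began 50 bp downstream of its start. Among the 262 pairs of a merged region and an assigned gene, 6 (2.29%) had a region beginning 1 to 100 bp downstream of the gene start, a distance chosen after these values were seen. The others were those of Gm26917, Gm22567, Hoxa3 and Gm28308. In 39 of the 262 pairs the gene start lay inside the region. With RefSeq gene starts (GRCm38.p6) in place of GENCODE, a choice also made after seeing the data, the distance was 137 bp for Bahcc1 and 54 bp for 2810410L24Rik, so neither of these starts was inside its region in either annotation.

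Starts of other transcripts did lie inside. The wide region holds the starts of 2 further Bahcc1 transcripts, at 120236445 and 120236699, and the whole of Gm11772, an antisense noncoding gene at 120235234 to 120236122 on the minus strand. RefSeq gives Gm11772 a longer extent, 120235184 to 120238036. In the 2810410L24Rik region lies the start of the other transcript of that gene, at 120188751. RefSeq has a further gene that overlaps this region and reaches beyond its lower limit, Gm9734, at 120184094 to 120188739.

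The genes were covered to very different degrees. Merged regions held 98.9% of 2810410L24Rik, rank 20 of 140 genes by this share, 75.7% of 2900052L18Rik, rank 27, and 11.1% of Bahcc1, rank 53. The median over the 140 genes was 4.75%. At Bahcc1 all of the 6606 bp in merged regions lay at the start of the gene, and the 52588 bp after the short region held none. By annotation the wide region was mostly intronic: 887 bp of it (14.2%) were exons of Bahcc1, of which 178 bp were coding in the transcripts that begin translation there. The short region lay wholly in an intron. Exons of 2810410L24Rik made up 2978 bp (66.4%) of its region.

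The break of replicates 1 and 3 inside the Bahcc1 domain fell within a single exon. All 266 bp common to both breaks lay in exon 2 of the Bahcc1 transcripts that begin at the gene start (120236860 to 120237257), 149 bp in the untranslated part and 117 bp in the coding part, which begins at 120237080. This stretch had a GC content of 80.8% and held 49 CpGs, 184 per kb, against 56.7% and 67.02 per kb in the part of the region before it and 55.2% and 48.9 per kb in the part after it. Of 1115 windows of 266 bp laid end to end through the merged regions on chromosomes, 1 had a GC content at least as high (0.0897%), and their median was 47.4%. The part of GC content in the break was not tested. The region called in replicate 2 ran across the stretch without a break.

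The pattern over the lists that was most like that of the wide Bahcc1 region was found at Hox genes. Likeness was the Euclidean distance over the log2 of −log10 q in the 3 lists, over the 28 other regions with an assigned gene and a call in all lists. The nearest was the Hoxa9 and Hoxa10 region (chromosome 6, 12605 bp wide), with a −log10 q of 68.3, 49.2 and 100.9 and a distance of 0.44. Hoxa9 and Hoxa10 are homeobox genes of the body axis and limb. Also among the 5 nearest were the regions of Hoxc10 and Hoxc11, homeobox genes of the posterior axis (1.24), and of Eya1 (1.88). Among the 3 nearest to the 2810410L24Rik region were that of Eya1, with 45.8, 20.9 and 67.5 (1.03), and that of Meis1 and Gm16141, with 39.1, 16.4 and 57.9 (1.03). Eya1 encodes a transcriptional cofactor that acts in muscle progenitors, and Meis1 encodes a partner of Hox proteins.

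Among 11 genes for BAH domain proteins, 2 had a merged region, Bahcc1 and Tnrc18, which encodes the protein most closely related to that of Bahcc1. Bahcc1 has one by the choice of members, and of the other 10 genes 1 had one. Over all 55536 annotated genes, 140 had one by the study's assignment. The main Tnrc18 region (chromosome 5, 142813250 to 142817236, 3987 bp) was in all 3 lists, with a −log10 q of 21.6, 5.10 and 27.4, below both wide members in each list. Tnrc18 also had 2 short regions in 1 list each, with 3.36 in replicate 1 and 5.94 in replicate 3. Of 27 genes for Polycomb proteins only Jarid2, a cofactor of the complex that methylates lysine 27 of histone H3, had a region, of 326 bp with 20.7 in replicate 1 and 26.4 in replicate 3. Of 6 genes for partners of Ash1L and other methyltransferases of lysine 36 of histone H3, 0 had one. The Polycomb genes Cbx8 and Cbx2 lie on the same chromosome, with starts 1144347 and 1162354 bp from the nearest member region, and had none.

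In sequence, which the rule did not use, both wide members were richer in GC and CpG than most merged regions. The wide Bahcc1 region had a GC content of 57.2%, rank 40 of the 242 merged regions on chromosomes, and 413 CpGs. Its CpG ratio, the observed number of CpGs over that expected from its C and G, was 0.809, rank 26. The 2810410L24Rik region had 56.1%, rank 47, with 235 CpGs and a ratio of 0.666, rank 54. The medians over the 242 regions were 47.5% and 0.417. The short Bahcc1 region had 44.9%, 3 CpGs and a ratio of 0.174, rank 211, and so differed in composition from the wide region beside it.

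By a common rule for CpG islands, 200 bp windows whose GC content reached 50% and whose CpG ratio reached 0.6 made up 63.2% of the windows of the wide Bahcc1 region, 46.4% of those of the 2810410L24Rik region and 0 of the short one, where the median over all regions was 0. With the stricter limits of 55% and 0.65 the shares were 55.3%, 27.4% and 0. The neighbouring 2900052L18Rik region had 64.1% by the first rule. The CpG ratio of the wide Bahcc1 region was not even along it: in steps of 500 bp it was 0.980 from 120236507 and 1.04 from 120237007, and 0.201 from 120238507. In the rest of the Bahcc1 gene the ratio was 0.258 at a GC content of 55.9%, so the region and the rest of the gene were near each other in GC content and far apart in CpG. In the 1 kb before the wide region the ratio was 0.591, and in the 1 kb on either side of the 2810410L24Rik region it was 0.218 and 0.544, the second on the side of the gene start.

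The sequence of the members was nearly unique in the genome. No stretch of 50 bases of either Bahcc1 region occurred more than once in the chromosomes and unplaced sequences of the reference, and 0.248% of those of the 2810410L24Rik region did, with at most 2 copies. Repeat-masked bases made up 13.5% of the wide region, 6% of the short one and 9.67% of the 2810410L24Rik region, against a median of 14.1%.

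Short motifs were counted on both strands: CAGCTG, a form of the E-box that myogenic factors bind, GGGCGG, the GC box, and CGCG, whose overlapping matches were counted separately. The wide Bahcc1 region held 3 CAGCTG, 11 GGGCGG and 51 CGCG, or 0.480, 1.76 and 8.15 per kb. The 2810410L24Rik region held 4, 7 and 20, or 0.891, 1.56 and 4.46 per kb, and the short Bahcc1 region held 0 of each. All merged regions on chromosomes together had 0.408, 0.644 and 1.98 per kb. CGCG and the GC box both contain CpG, in which the 2 wide members were richer than most regions.

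The sequences around the limits are shown because both wide members begin next to the starts of their genes without holding them. The promoter windows are those of RefSeq (GRCm38.p6). That of 2810410L24Rik is chr11:120189807-120190106 (minus strand, 300 bases), just beyond the end of the region and outside every merged region. That of Gm11772 is chr11:120237987-120238286 (minus strand, 300 bases), wholly inside the wide region. For Bahcc1 only the 173 bases before the RefSeq start are given, chr11:120232697-120232869 (plus strand), outside every merged region. Capitals mark matches of the E-box CAGCTG, of the GC box, which reads CCGCCC on the other strand, and of the tetramer CGCG.
Bahcc1 upstream: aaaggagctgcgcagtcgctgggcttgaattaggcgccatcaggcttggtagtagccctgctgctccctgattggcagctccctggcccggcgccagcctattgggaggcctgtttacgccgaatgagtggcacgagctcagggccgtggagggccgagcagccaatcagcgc
2810410L24Rik promoter: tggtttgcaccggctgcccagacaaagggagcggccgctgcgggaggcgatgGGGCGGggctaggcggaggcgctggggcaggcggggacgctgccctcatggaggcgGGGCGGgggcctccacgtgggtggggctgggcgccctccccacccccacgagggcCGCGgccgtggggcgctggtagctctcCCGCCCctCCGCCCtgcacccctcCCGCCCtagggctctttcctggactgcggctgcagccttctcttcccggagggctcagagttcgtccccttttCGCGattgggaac
Gm11772 promoter: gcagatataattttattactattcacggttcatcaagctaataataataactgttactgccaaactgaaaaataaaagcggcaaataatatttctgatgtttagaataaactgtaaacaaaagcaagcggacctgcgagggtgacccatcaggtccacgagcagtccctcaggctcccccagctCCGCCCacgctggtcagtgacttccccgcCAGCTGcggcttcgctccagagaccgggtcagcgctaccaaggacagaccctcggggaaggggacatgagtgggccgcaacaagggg
The 2810410L24Rik window has a GC content of 74.0% with 27 CpGs and holds 5 GC boxes, 2 CGCG and 0 CAGCTG. The Gm11772 window holds 1 CAGCTG and 1 GC box at a GC content of 51.0%. The Bahcc1 stretch, at 64.2%, holds none of the 3 motifs, and the full Bahcc1 window of 300 bases, chr11:120232697-120232996, holds 1 CGCG and 0 of the others. Of all 32851 promoter windows, 16.3% hold CAGCTG, 35.7% GGGCGG and 38.0% CGCG. In their first 173 bases, the length and place of the Bahcc1 stretch, the shares are 8.82%, 19.9% and 24.7%.

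At Bahcc1, the coding part of the break shared by replicates 1 and 3 and the shared core of the short region show how far their compositions lie apart. The first is chr11:120237080-120237196 (plus strand, GRCm38, 117 bases of exon 2 from the start codon). The second is chr11:120239471-120239670 (plus strand, GRCm38, 200 bases of the intron). Capitals mark the same motifs.
Bahcc1 coding start: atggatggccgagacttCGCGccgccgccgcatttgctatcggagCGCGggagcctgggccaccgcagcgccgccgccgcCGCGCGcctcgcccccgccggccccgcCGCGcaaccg
Bahcc1 intron stretch: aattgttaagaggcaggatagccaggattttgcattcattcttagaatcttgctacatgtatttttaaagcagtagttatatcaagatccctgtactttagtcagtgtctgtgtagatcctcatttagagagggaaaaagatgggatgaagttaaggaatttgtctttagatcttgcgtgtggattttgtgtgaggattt
The coding stretch has a GC content of 80.3% with 24 CpGs and holds 5 CGCG and 0 of the other motifs. The intron stretch has a GC content of 36.0% with 1 CpG and holds none of the 3 motifs. Of windows of 117 bp laid end to end through the merged regions on chromosomes, 2664 in number, 13.9% hold CGCG. Of 1507 such windows of 200 bp, 8.03% hold CAGCTG, 10.1% GGGCGG and 20.3% CGCG.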

How the data were processed

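The 3 Ash1L ChIP-seq lists and the merged list that the authors deposited were used. Per the labels and the study's methods, reads were trimmed, aligned to mm10 with BWA-MEM, freed of duplicates with Picard and of blacklisted regions, and properly paired, uniquely mapped reads were kept. MACS2 called narrow regions against the input, separately for every replicate. The study's methods describe broad regions merged with bedtools and assigned to genes, whereas the deposited merged list that the assignment uses equals the narrow regions merged. The submitters' processing notes give cutadapt 1.11 and BWA 0.7.15 for replicate 1, cutadapt 1.12 and BWA 0.7.16 for replicate 2, and cutadapt 1.13 and BWA 0.7.17 for replicate 3. These versions rise by 1 step with every ChIP sample of the series, and for replicate 2 the notes also name MACS3, so which versions were run is uncertain. The value in the authors' lists was read as −log10 q, deposited once per summit, and depth is not known.

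The 3 deposited copies of the merged list were identical, and its 259 regions are the same as those of the gene assignment. A list held a region with an overlap of at least 1 bp. Annotation was GENCODE M21, and sequence was RefSeq GRCm38.p6. Of 146 assigned genes, 140 were found in GENCODE M21. Genes to name were Bahcc1, 2810410L24Rik, the genes that overlap or lie between their regions, the 5 and 3 regions most like the wide Bahcc1 and the 2810410L24Rik region, and the members of 3 gene lists with a region. Some of these are not reported here. Members and lists were chosen with earlier results of these data known, and no test was run. CpG windows were 200 bp, in steps of 1 bp, and copies were counted for 50-mers on both strands. As alternatives, only values from 5 upwards were kept, an overlap had to reach 50% of both regions, and others were joined gaps of 100 and 1000 bp, other summaries of summits, other ranks, starts and CpG rules, and each replicate left out. Interval functions were tested on simulated data. The analysis ran in Python 3.11.15 with numba 0.67.0, pysam 0.24.0, scipy 1.17.1 and numpy 2.4.6, and samtools 1.23.1 indexed the genome.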

Additional observations from a re-analysis of the deposited data

How the results depend on the processing

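Of 87 alternative values for 22 results, 59 were near the reported value and 28 were not. Only the difference in −log10 q between regions could change sign, and 0 of its alternatives did. The short Bahcc1 region, of 350 bp, holds no CpG window of 500 bp, so its near value under that rule was fixed in advance. Near meant within the SD over the lists for widths, lengths and −log10 q, within 1.5 times for counts and ranks, inside the 95% Wilson interval for CpG shares (over only the 31, 22 and 1 windows that fit end to end in the wide Bahcc1, 2810410L24Rik and short Bahcc1 region, so a wide one), and equal for distances. Other near values were fixed by these limits. Leaving out 1 replicate cannot move a mean −log10 q, or the mean difference, by as much as the SD. A region in 3 lists is then in 2, which is just within 1.5 times. The share of 0 in the short region cannot fall under stricter CpG limits. The count of near values therefore does not measure how firm the results are. 84 of the alternatives were planned, and the 3 with RefSeq gene starts were chosen after seeing the data. With regions within 100 bp or within 1000 bp joined, both Bahcc1 regions became 1 of 6702 bp, because 96 bp separate them. With the mean over summits, the mean −log10 q was 36.5 for the wide Bahcc1 region and 19.6 for the 2810410L24Rik region, and their difference 16.9. With the median over summits these were 32.5, 17.2 and 15.3. As percentiles within the list the difference was 8.99 points, on a scale that cannot be set against −log10 q. By the lowest list, with a missing call counted as 0, the ranks were 1 for the wide Bahcc1, 6 for the 2810410L24Rik and 36 for the short Bahcc1 region, which ties with every region that a list lacks. The nearest transcript start lay inside the wide Bahcc1 and the 2810410L24Rik region (0 bp) and 2660 bp from the short one, and the longest transcript of 2810410L24Rik also starts inside (0 bp). From RefSeq starts the distances were 137 bp, 54 bp and 6489 bp, against 60, 50 and 6412 bp.

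Leaving out each replicate in turn, the number of lists holding the short region was 1 to 2 and its width 238 to 350 bp, with 0 to 200 bp held by all lists used. The width of the wide Bahcc1 region was 3924 to 6256 bp, the lowest without replicate 2, when the domain parts at the break and falls below the 2810410L24Rik region in width, and the length held by all lists used was 5223 to 5901 bp. For the 2810410L24Rik region that length was 2905 to 4138 bp, the highest without replicate 2. The planned comparison of summit positions between replicates could not be run, since the lists give none. Differences between regions were taken within each list, and no fit with a replicate block was made, since no result comes from a test. Without read counts, the error of a single −log10 q is unknown, and its spread over 3 replicates, or 2 for the short region, is all that limits these values.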
